A study of Mus musculus with 24 samples.

Results

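The regions described here are short, isolated stretches of H3K4me3 that were called common to wild-type and KDM1A-knockdown leukemic mouse splenocytes. They were chosen from the deposited list of common regions by 3 limits. A region had to lie on an autosome other than chromosome 15, be shorter than 500 bp, and be separated by a gap of more than 5000 bp from every other region of the 3 deposited lists. Of 43276 common regions in the file, 40376 lay on the 18 autosomes used, and 1544 of these met the limits. They are called narrow solitary regions below and made up 3.82% of the common regions on those autosomes (95% Wilson interval 3.64 to 4.02%). Length, gap and list membership chose the regions, so these are given as a description and carry no test.

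H3K4me3 was profiled by chromatin immunoprecipitation and sequencing in splenocytes of leukemic mice on a C57BL/6 background. The Eµ-TCL1A model expresses a TCL1A transgene from a B-cell enhancer and promoter and develops a disease like chronic lymphocytic leukemia. Both conditions came from this model, and the knockdown condition differed by knockdown of KDM1A; neither the method of the knockdown nor the age or sex of the mice is stated in the labels. Per condition, 3 biological replicates were each sequenced as 2 technical replicates, for both the immunoprecipitate and the input. The lists compare the conditions as a whole and hold no value per library, so depth is unknown and no difference could be set against the spread between replicates. The intervals below reflect counting error alone and take each region as independent of the others.

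As background, H3K4me3 is deposited by the SET1 and MLL methyltransferase complexes and is strongest around active start sites, above all at CpG-island promoters, where it can spread over several nucleosomes on both sides. Shorter and weaker stretches are also seen at enhancers, at promoters of weakly used or alternative transcripts and at repeats. KDM1A (LSD1) acts on H3K4 that carries mono- or dimethylation and does not demethylate the trimethylated form. Which of these classes a narrow solitary region belonged to was not analysed here, because the gene table at hand is for GRCm38.p6 and the regions are on GRCm39. For the same reason no sequence is shown, and regions in repeats or in sequence prone to false signal were not set apart.

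The narrow solitary regions had a median length of 325 bp, with quartiles of 266 and 389 bp and a range from 200 to 499 bp. The shortest region of any list was also 200 bp long. By comparison, all common regions of the 18 autosomes had a median length of 873 bp. Of the narrow solitary regions, 39.1% were shorter than 300 bp and 78.0% shorter than 400 bp. The length of 200 bp was shared by 2 regions, on chromosome 1 at positions 164011914 to 164012113 and on chromosome 8 at 116125180 to 116125379. The length of 499 bp was shared by 4, which started at position 58782013 of chromosome 1, 22312622 of chromosome 6, 35752591 of chromosome 12 and 59990173 of chromosome 13. Counts over classes of 50 bp were 292 at 200 to 249 bp, 361 at 300 to 349 bp, the highest class, and 149 at 450 to 499 bp. Solitary regions just beyond the length limit were no rarer by a step, with an average of 132 per 50 bp between 500 and 749 bp. The length limit therefore cut a continuous distribution. The 4 regions of 499 bp lay just inside it, and the 3 shortest solitary regions outside it measured 501, 501 and 502 bp.

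**Figure D1:**
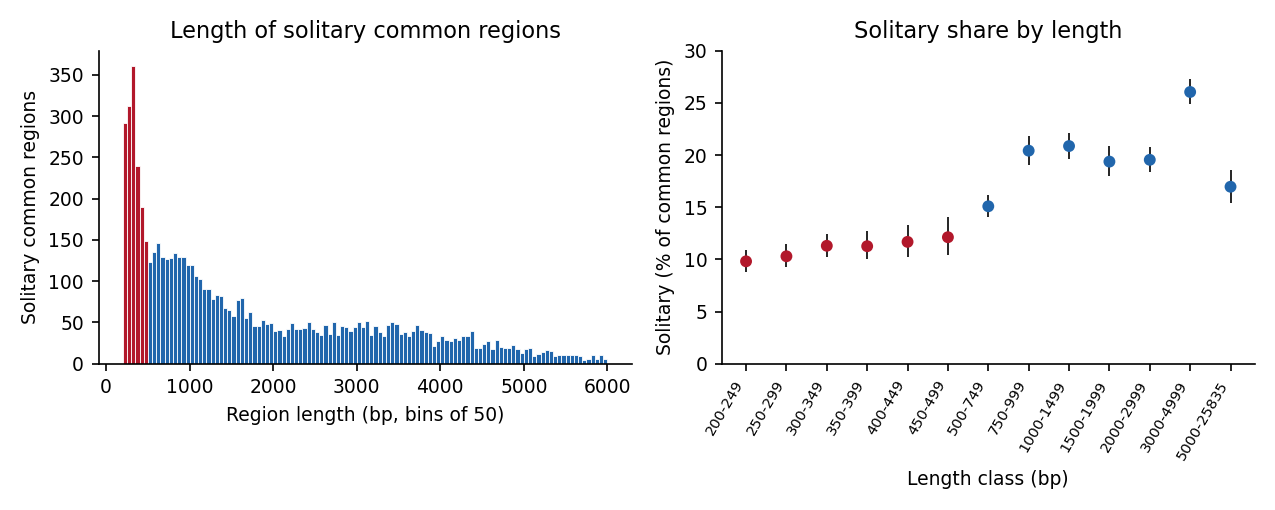
Left, number of solitary common regions (more than 5 kb from every other region) by length in bins of 50 bp, with narrow solitary regions in red and longer ones in blue; 146 longer regions lie beyond the axis. Right, percentage of all common regions in each length class that were solitary, with 95% Wilson intervals; the share lay between 9.81 and 12.1% in the 6 classes below 500 bp and between 15.1 and 26.0% in the classes above.

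Narrow common regions were mostly not solitary. Of 14187 common regions shorter than 500 bp, 10.9% (10.4 to 11.4%) were solitary, and the other 12643 lay within 5 kb of another region. Such neighbours can adjoin directly. Among common regions of any length, 31.6% overlapped or touched another region, a share not taken for the narrow ones alone. Among the 26189 common regions of 500 bp or more, 20.1% (19.7 to 20.6%) were solitary, which gave 5274 long solitary regions. Read the other way, 22.6% (21.7 to 23.7%) of the 6818 solitary regions were narrow, against 37.7% (37.2 to 38.2%) of the regions that were not solitary. The solitary share was lowest in the shortest class, at 9.81% (8.79 to 10.9%) of regions of 200 to 249 bp. It was 26.0% (24.9 to 27.3%) at 3000 to 4999 bp, the highest of the length classes examined.

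The gap from a narrow solitary region to the nearest other region had a median of 15.1 kb, with quartiles of 8.57 and 31.4 kb. The gap was over 10 kb for 67.5% of them, over 50 kb for 15.5% and over 100 kb for 6.41% (5.29 to 7.75%). On the side of the farther neighbour the median gap was 52.4 kb. The gaps towards lower and higher coordinates were alike, with medians of 26.9 kb (95% interval of the median 24.7 to 30.04 kb) and 27.8 kb (25.2 to 29.6 kb). Long solitary regions had a median nearest gap of 16.9 kb (16.4 to 17.6 kb), slightly above the interval of 14.03 to 15.97 kb for the narrow ones. At the gap limit, the 3 regions just inside had gaps of 5009, 5020 and 5024 bp, and the 3 narrow regions just outside had gaps of 4994, 4973 and 4965 bp.

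The most isolated narrow solitary region lay on chromosome 2 at positions 98497191 to 98497485. It measured 295 bp, and its nearest neighbour was 1198 kb away on one side and 2961 kb away on the other. Its score was 0.0435. As for all regions here, whether it lies in sequence prone to false signal was not checked. The next, on chromosome 6 at 26765017 to 26765379, stood 955 kb from its nearest neighbour. On chromosome 4, a region of 217 bp at 12906962 to 12907178 had a nearest gap of 734 kb, and the neighbour at that distance was a wild-type-only region. Next came a region of 496 bp on chromosome 10 at 10433424 to 10433919, with a gap of 591 kb and a score of 1.75. The last of the 5, again on chromosome 4 at 147303979 to 147304399, had a gap of 587 kb. These 5 ranged in length from 217 to 496 bp. Over all narrow solitary regions, median length was 320 bp at gaps of 5 to 10 kb and 337 bp at gaps over 100 kb.

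The nearest neighbour was most often another common region. It was common for 78.7% (76.6 to 80.7%) of narrow solitary regions, unique to the knockdown for 13.9% (12.2 to 15.7%) and unique to the wild type for 7.45% (6.24 to 8.87%). For long solitary regions the corresponding shares were 80.0% (78.9 to 81.0%), 14.9% (13.9 to 15.9%) and 5.18% (4.61 to 5.81%). Among all regions of these autosomes 69.0% were common, 22.4% were unique to the knockdown and 8.58% were unique to the wild type. The interval of wild-type-only neighbours of narrow solitary regions held this background, and their knockdown-only neighbours lay below it, as did those of long solitary regions. Both flanking regions were common for 59.99% of the 1542 narrow solitary regions that had a neighbour on both sides, and neither was common for 4.93%. The nearest region had a median length of 777 bp, and it was a broad common region, here one of 2000 bp or more, in 23.3% (21.2 to 25.4%) of cases.

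Distance to broad H3K4me3 was then measured, since broad regions of this mark are typical of active promoters. The 18 autosomes held 11481 broad common regions with a median length of 3419 bp. The nearest broad region lay at a median of 37.1 kb (34.1 to 41.2 kb) from a narrow solitary region, with quartiles of 16.2 and 89.0 kb. A broad region was within 10 kb for 12.8% of them, within 50 kb for 58.3% (55.8 to 60.7%), within 100 kb for 77.7% and within 500 kb for 97.5%. Only 11 of the 1544 lay more than 1000 kb away. For long solitary regions the median distance to another broad region was 35.8 kb (34.7 to 37.3 kb), with 61.1% (59.7 to 62.4%) within 50 kb. The intervals of both groups overlapped. Narrow regions that were not solitary had a median distance of 3.33 kb, a contrast that follows in part from the gap limit itself.

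**Figure D2:**
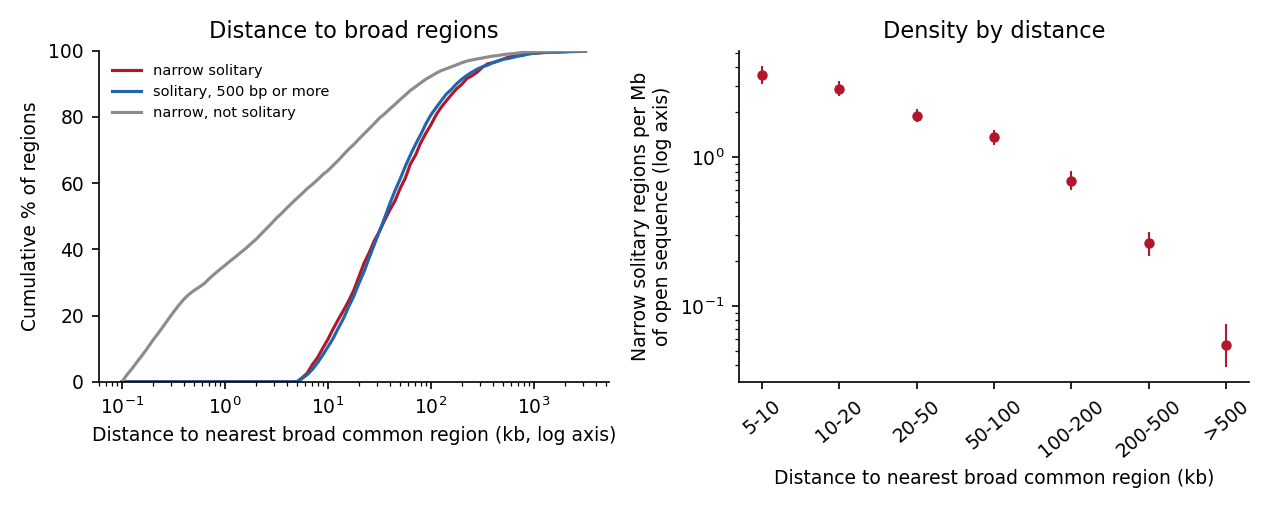
Left, cumulative percentage of regions by distance to the nearest common region of 2000 bp or more (log axis) for narrow solitary regions, solitary regions of 500 bp or more and narrow regions that were not solitary; the curves of both solitary groups run together, with medians of 37.1 and 35.8 kb. Right, narrow solitary regions per Mb of open sequence (log axis) by distance class, with 95% Poisson intervals; the density was 3.57 at 5 to 10 kb and 0.0550 beyond 500 kb.

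Counts by distance depend on how much sequence lies at each distance. Density was therefore taken over open sequence, meaning positions more than 5 kb from every region other than a narrow solitary one, of which there were 2014 Mb. It was 3.57 narrow solitary regions per Mb (3.09 to 4.10, 95% Poisson interval) at 5 to 10 kb from a broad region. It was 1.90 (1.72 to 2.09) at 20 to 50 kb, 0.696 (0.600 to 0.802) at 100 to 200 kb and 0.0550 (0.0391 to 0.0751) beyond 500 kb. The nearest class was thus 65.0-fold denser than the farthest. Over the 7 classes, density was lower with each step away from broad regions. Counts of long solitary regions, divided by the same open sequence, also declined. That sequence leaves out the long solitary regions and the 5 kb around them, so these values are ratios and not densities. They were 10.04 per Mb (9.23 to 10.9) at 5 to 10 kb and 0.193 (0.162 to 0.228) beyond 500 kb. The narrow share of solitary regions showed no such slope. It was 26.2% (23.2 to 29.5%) at 5 to 10 kb, 19.7% (18.1 to 21.5%) at 20 to 50 kb, 26.9% (22.9 to 31.3%) at 200 to 500 kb and 22.2% (16.7 to 28.9%) beyond 500 kb.

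The same relation was seen in windows of 1 Mb. The 725 windows without a broad region held 52 narrow solitary regions, or 0.0717 per window (0.0536 to 0.0941). Windows with 3 to 5 broad regions held 0.757 (0.676 to 0.845) and windows with 11 to 20 held 1.64 (1.498 to 1.80). In the 76 windows with 21 to 46 broad regions the value was 1.25 (1.01 to 1.53). The richest windows thus did not hold more than those with 11 to 20. Common regions of any length numbered 0.714, 14.9, 47.8 and 79.3 per window in the same classes. Relative to common regions, narrow solitary ones were thus fewer in windows rich in broad regions. Both observations on rich windows follow in part from the gap limit itself, which leaves less room for solitary regions where regions are crowded.

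The region farthest from a broad common region lay on chromosome 14 at 94496507 to 94496855. It was 4.78 Mb away, measured 349 bp and scored 0.738. Its neighbour at higher coordinates, 283 kb on, was the second farthest, at 94779835 to 94780062 and 4.50 Mb from a broad region. The third, on chromosome 3 at 72461894 to 72462257, was 2.83 Mb away. The remaining 2 lay on chromosome 5 at 18241184 to 18241515 (2.67 Mb) and on chromosome 2 at 177481891 to 177482200 (2.13 Mb). None of these 5 was among the 5 most isolated regions, because regions below 2000 bp lay nearer to each of them. The 3 closest to a broad region were at the gap limit, with distances of 5053 bp on chromosome 14 (25600466 to 25600721), 5062 bp on chromosome 1 (173714450 to 173714761) and 5130 bp on chromosome 4 (141146403 to 141146730).

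Successive narrow solitary regions of a chromosome were separated by a median of 551 kb (497 to 609 kb), with quartiles of 194 and 1687 kb and a mean of 1451 kb. The median pair had 23 other regions of any list between its members. Another narrow solitary region lay within 50 kb for 15.8% (14.1 to 17.7%) of them, within 100 kb for 27.4% (25.2 to 29.7%) and within 1000 kb for 84.4%. The tightest pair lay on chromosome 11, at 11450193 to 11450565 and 11455597 to 11456004, with 5031 bp between them. The longest stretch without a narrow solitary region, 26.4 Mb, lay on chromosome 16 between positions 58524179 and 84945806. Of 2303 windows of 1 Mb, 1410 (61.2%) held none, 490 held 1 and 2 held 6, the highest number. One of the latter windows, on chromosome 17 between 57 and 58 Mb, contained 54 common regions, 15 of them broad. The other, on chromosome 3 between 148 and 149 Mb, contained 18 common regions, none of them broad.

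Some narrow solitary regions followed one another directly. In 129 of 1526 successive pairs (8.45%) no other region lay between them. This was not particular to narrow solitary regions. The nearest region was a narrow solitary one for 8.10% (6.84 to 9.56%) of them and for 8.06% (7.35 to 8.82%) of long solitary regions. The direct pairs gave 10 strings of at least 3 regions, 8 of which had 3. Both longest strings had 4 regions. The string on chromosome 2, from 117234465 to 117682642, spread over 448178 bp, and its regions measured 258 to 388 bp and scored 0.0306 to 0.761. The string on chromosome 13, from 120426610 to 120612238, spread over 185629 bp, with lengths of 245 to 413 bp and scores of 0.0809 to 0.306. Of the 10 strings, 3 lay on chromosome 8. Strings were looked for after the data had been seen.

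The number per autosome ran from 45 on chromosome 18 to 131 on chromosome 2. Relative to a chromosome's span from its first to its last listed region, the median density was 0.677 per Mb. The 3 highest densities were on chromosome 19 (0.912 per Mb, 95% Poisson interval 0.683 to 1.19), chromosome 17 (0.869, 0.689 to 1.08) and chromosome 11 (0.859, 0.701 to 1.04). The 3 lowest were on chromosome 14 (0.487, 0.370 to 0.630), chromosome 18 (0.515, 0.376 to 0.690) and chromosome 1 (0.552, 0.452 to 0.669). Neighbours in this order had overlapping intervals, and the intervals of 13 of the 18 chromosomes held the pooled density of 0.675 per Mb. The highest and the lowest chromosome differed 1.87-fold.

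Chromosomes with many narrow solitary regions per Mb were those with many common regions of other kinds. Over the 18 autosomes, density went with that of broad regions (Pearson's r = 0.88, Spearman's rho = 0.81) and with that of long solitary regions (r = 0.88, rho = 0.94). Without chromosomes 11 and 19, which lay farthest from the median density of broad and of long solitary regions, r was 0.84 and 0.88. These values are descriptions over chromosomes that share the same libraries and lists. The order was another one relative to common regions. Chromosome 11 had the fewest, 2.96 per 100 common regions (2.45 to 3.58), followed by chromosome 7 with 3.18 (2.60 to 3.88) and chromosome 19 with 3.202 (2.46 to 4.16). The most were on chromosome 12 with 4.80 (3.87 to 5.94), chromosome 13 with 4.57 (3.72 to 5.61) and chromosome 3 with 4.44 (3.64 to 5.42). The intervals of 16 of 18 chromosomes held the pooled share of 3.82%. The number per 100 common regions was lower where common regions per Mb were denser (r = -0.79, rho = -0.74). Without chromosomes 11 and 19, r was -0.62. This relation follows in part from the gap limit, which leaves fewer solitary regions where regions are crowded.

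**Figure D3:**
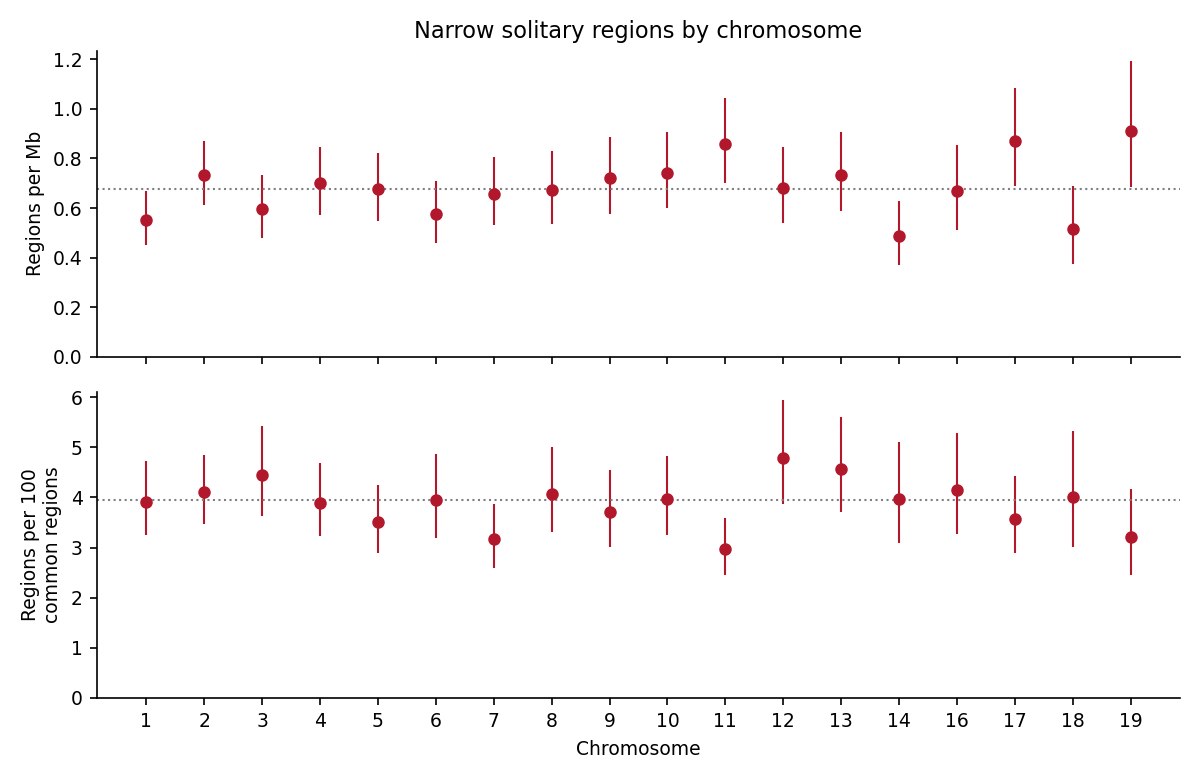
Narrow solitary regions per Mb (top, 95% Poisson intervals) and per 100 common regions (bottom, 95% Wilson intervals) on each of the 18 autosomes; dotted lines mark the medians of 0.677 per Mb and 3.95 per 100. Chromosomes 11 and 19 are among the 3 highest in the top panel and the 3 lowest in the bottom one.

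Along the chromosomes the narrow solitary regions were placed as common regions in general. With each span divided into 5 equal parts, the part at the lowest coordinates, which in mouse chromosomes is next to the centromere, held 16.6% (14.8 to 18.5%) of them and 16.9% of all common regions. The part at the highest coordinates held 26.3% (24.2 to 28.5%) and 26.8%. In each of the 5 parts the share of all common regions lay within the interval of the narrow solitary ones. Medians of length varied little between chromosomes, from 301 to 338 bp. Median distances to a broad region ran from 24.3 kb on chromosome 11 to 50.4 kb on chromosome 3.

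The authors' score separates the lists, lying below 3 in every common region and above 3 in every one-sided region. Its meaning is not stated in the headers. No direction is stated with it for a common region. Narrow solitary regions had a median score of 0.348 (0.316 to 0.376), with quartiles of 0.143 and 0.757. Long solitary regions had a median of 0.405 (0.396 to 0.410) with quartiles of 0.279 and 0.573, and narrow regions that were not solitary had a median of 0.579 (0.563 to 0.597). Narrow solitary regions were thus spread more widely than long ones towards both ends. The score was below 0.1 in 16.5% (14.7 to 18.5%) of them, against 2.01% of long solitary regions and 11.02% of narrow regions that were not solitary. It was 1 or more in 17.0% (15.2 to 18.9%), against 5.38% and 33.4%. Since the score separates the lists, these values are a description.

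**Figure D4:**
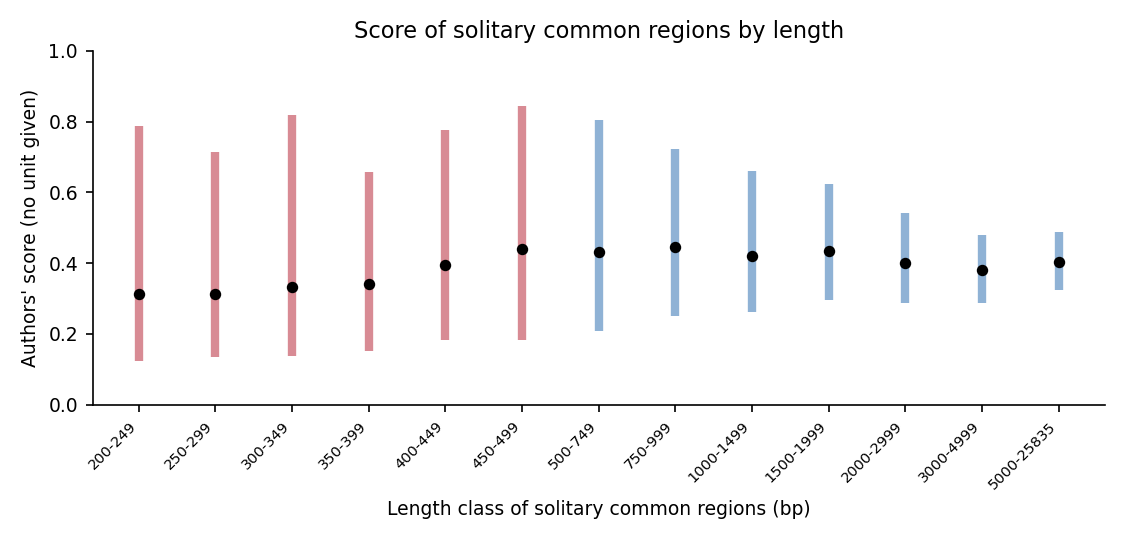
Authors' score of solitary common regions by length class; points are medians and bars run from the lower to the upper quartile, red for narrow solitary regions and blue for longer ones. The quartiles lay at 0.122 and 0.786 in the shortest class and at 0.287 and 0.480 at 3000 to 4999 bp.

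The highest score of a narrow solitary region, 2.41, belonged to a region of 490 bp on chromosome 2 at 157438715 to 157439204. Its neighbour at higher coordinates, 10.7 kb on, was unique to the knockdown. The next, with 2.39, was a region of 201 bp on chromosome 10 at 94982367 to 94982567. The third, with 2.36, lay on chromosome 19 at 3133505 to 3133783 and was the first region of any list on that chromosome. The 3 lowest scores were 0.00778 on chromosome 9 (83573586 to 83573824), 0.00952 on chromosome 1 (153616179 to 153616386) and 0.0109 on chromosome 16 (33186383 to 33186744). By distance to a broad region, median scores were 0.413 at 5 to 10 kb, 0.396 at 10 to 20 kb, 0.335 at 20 to 50 kb, 0.313 at 50 to 100 kb, 0.316 at 100 to 500 kb and 0.239 in the 39 regions beyond 500 kb. The quartile ranges of these 6 classes overlapped.

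The same length and gap limits were applied to the one-sided lists, to see how isolated short sites were divided between the conditions. On the 18 autosomes 2648 regions of any list met them. Of these, 58.3% (56.4 to 60.2%) were common, 764 or 28.9% (27.2 to 30.6%) were unique to the knockdown and 340 or 12.8% (11.6 to 14.2%) were unique to the wild type. Among all 58479 regions of these autosomes, whatever their length and gap, 22.4% were unique to the knockdown and 8.58% to the wild type. That background was not limited to short regions, and the shares among short regions in general were not taken. Both one-sided shares of the isolated short sites lay above these background percentages, with intervals that did not reach them. This did not extend to isolated regions of 500 bp or more, of which 5274 were common, 416 knockdown-only and 429 wild-type-only. Those made up 13.1% of the common list, 3.18% of the knockdown list and 8.55% of the wild-type list. Narrow regions made up 64.7% (62.0 to 67.4%) of the solitary regions of the knockdown list and 44.2% (40.7 to 47.7%) of those of the wild-type list, against 22.6% for the common list. Solitary or not, 14187 of the 40376 common regions were narrow. The matching counts of the one-sided lists were not taken. Whether these differences between lists are particular to solitary regions was therefore not tested. Median lengths were close, at 301 bp for the knockdown list and 321 bp for the wild-type list. Distances to a broad common region differed by list. The median was 36.9 kb (32.1 to 41.8 kb) for the knockdown list, within the interval of the common regions, and 76.4 kb (67.5 to 93.5 kb) for the wild-type list.

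Chromosomes 15 and X lay outside the selection. On chromosome 15, 64 common regions met the length and gap limits, or 0.639 per Mb (0.492 to 0.816), within the range of the 18 autosomes. Their median score was 0.570 (0.430 to 0.685), above the highest median of the 18 autosomes, 0.413 on chromosome 7. Scores of the other common regions of chromosome 15 were not taken. Whether the higher score is particular to narrow solitary regions of chromosome 15 was therefore not tested. By the same limits that chromosome held 54 regions unique to the knockdown, or 44.3% (35.8 to 53.1%) of 122 narrow solitary regions of any list, and 4 unique to the wild type, or 3.28% (1.28 to 8.13%). Both intervals held the shares over all 3839 regions of chromosome 15, which were 42.9% and 2.55%. Chromosome X held 38 such common regions, or 0.235 per Mb (0.166 to 0.322), below the lowest of the 18 autosomes, and 4.95 (3.63 to 6.73) per 100 common regions.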

How the data were processed

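H3K4me3 immunoprecipitates and inputs of wild-type and KDM1A-knockdown splenocytes were sequenced in 24 libraries, 6 in each of 4 groups. Bowtie2 2.2.9, SAMtools 1.6, MACS2 2.2.6 and the build GRCm39 were used, per the submitters' processing notes; their order, settings and any pooling are not stated there. The deposited files of the authors are 3 region lists (unique to each condition, and common) with coordinates and 1 score per region, without a stated unit. Depth is unknown.

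Gaps were counted from edge to edge and coordinates are 1-based. Python 3.11.15, pandas 2.3.3, numpy 2.4.6, scipy 1.17.1 and matplotlib 3.10.9 were used. Intervals were 95% Wilson (shares), Poisson (densities) or order-statistic (medians). Open sequence was sampled every 100 bp. The code was tested on 2251 simulated regions and recovered 100% of 213 planted narrow solitary ones. No simulated gap lay near 5000 bp, and no simulated solitary region reached 500 bp. Recovery at the edges of these limits was thus not tested.

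The limits, groups and comparisons were chosen with earlier results of these data known. Named regions were the 5 most isolated, the 5 farthest from and 3 closest to a broad region, the 3 highest and 3 lowest scores, the shortest and the longest (with ties), the tightest pair, the longest empty stretch, the 3 densest and 3 least dense chromosomes, and 3 regions on either side of each limit. Open sequence, strings, windows, 5 parts of the span and the one-sided lists were added after seeing the data. Alternatives changed each limit, the score minimum, the broad length and the distance measure.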

Additional observations from a re-analysis of the deposited data

How the results depend on the processing

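Of 42 alternative values, 17 stayed within a factor of 1.5 (counts) or within the interval of the reported median, and 25 moved. Most moves follow from the alternative's construction, since wider limits admit more regions. The count was 604 below 300 bp, 2844 below 1000 bp, 596 with gaps over 20 kb, and 571 when the score had to reach the median of common regions. With lengths under 300 and 1000 bp, median spacing was 1716 and 267 kb, density 0.260 and 1.22 per Mb, and score 0.313 and 0.391. With gaps over 2, 10 and 20 kb, the distance to a broad region was 27.8, 51.9 and 76.7 kb, spacing 335, 1020.2 and 1978 kb, and density 0.957, 0.449 and 0.258 per Mb; the score was 0.303 at 20 kb. The gap to the nearest common region alone was 16.2 kb. With broad regions of at least 1500, 3000 and 5000 bp the distance was 30.02, 58.0 and 187 kb. Density was 3.95 per 100 common regions. This was counted as moved, although its unit cannot be set against the interval per Mb. Median length stayed within its interval under the 3 gap limits. Including chromosome 15, chosen after seeing the data, gave 1608 regions. No paired analysis was possible because each list gives conditions as a whole, and no replicate could be left out. Depth is unknown, so what it limits cannot be stated.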
